A study of Mus musculus with 3 samples.

Results

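Myb and the interval upstream of it were described in the open chromatin of hematopoietic stem cells (HSCs) from 1 preparation, using every ATAC fragment that the passing cells had over the gene and over the 150 kb before its start. The gene is 1 of 21755 protein-coding genes on chromosomes 1 to 19 and X, and the interval was cut into 373 bins of 500 bp on the genome grid, of 5119083 such bins with sequence on those chromosomes. A cell passed when it had been called as a cell and had more than 3000 fragments in peaks, which kept 3108 of 3757 called cells (82.7%). The cells were long-term HSCs sorted as LSK CD48- CD150+ CD34- from bone marrow of wild-type C57BL6/J mice, female and 8 weeks old. How many mice gave this preparation is uncertain, since the study calls its profiling single-mouse and also speaks of mice in the plural. They carried no transgene and received no treatment, and there was no second condition. DOGMA-seq reads open chromatin, RNA and antibody tags from the same cells, and all 3108 cells also held RNA molecules (at least 234 and in the median 3860). With 1 ATAC library, no difference had a replicate and no test was made. Intervals are exact 95% binomial or Poisson intervals and cover counting error only.

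Myb encodes c-MYB, a DNA-binding transcription factor that hematopoietic stem and progenitor cells need to renew and to form blood lineages, and whose level falls as most lineages mature. The gene is controlled both at its promoter and inside its long first intron, where transcription can be held up. In erythroid progenitors it is also controlled by enhancers in the gene-poor stretch between Myb and Hbs1l, which bind GATA1, TAL1, KLF1 and the LDB1 complex. A transposase cuts DNA where nucleosomes and other proteins leave it accessible, so fragment ends pile up on active promoters and enhancers.

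Myb (ENSMUSG00000019982.15) lies on the minus strand at chr10:21124935-21160984 of GRCm38 (mm10), so positions upstream of it have higher coordinates. Its principal transcript, Myb-201, has 15 exons, and its first intron spans chr10:21156458-21160695 (4238 bp). The interval as a whole was chr10:21124935-21310984 (186.1 kb) and ended inside Hbs1l, which starts 135.0 kb upstream of Myb on the plus strand and encodes a factor of the machinery that rescues stalled ribosomes. Between both genes GENCODE vM21 annotates 3 lincRNA genes, Gm40608, Gm33619 and Gm33728, and a processed pseudogene, Gm2467. The antisense RNA Gm26577 overlaps the body of Myb.

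The sequences under the main accessible sites are given first, since the values below refer to them. Each is read 5′ to 3′ from GRCm38, and capitals mark matches, on either strand, to short strings bound by hematopoietic factors. The strings were AGATAA for GATA factors, CAGCTG and CAGATG for E-box factors such as TAL1, TGTGGT for RUNX, AGGAAG for ETS, TAACNG and CAACNG for MYB, TGACAG for MEIS, and CCACACCC and CCCCGCCC for KLF and SP factors. The promoter is the 250 bases before the start in the RefSeq promoter table, chr10:21160985-21161234, on the minus strand. The others are 300 bases around the point with the most fragment ends, on the plus strand. The first-intron maxima are at chr10:21158964-21159263 (1.87 kb into the gene) and chr10:21158103-21158402 (2.73 kb). The intergenic maxima are at chr10:21186748-21187047 (25.91 kb upstream), chr10:21189019-21189318 (28.18 kb), chr10:21196628-21196927 (35.79 kb) and chr10:21252182-21252481 (91.35 kb).
Myb promoter: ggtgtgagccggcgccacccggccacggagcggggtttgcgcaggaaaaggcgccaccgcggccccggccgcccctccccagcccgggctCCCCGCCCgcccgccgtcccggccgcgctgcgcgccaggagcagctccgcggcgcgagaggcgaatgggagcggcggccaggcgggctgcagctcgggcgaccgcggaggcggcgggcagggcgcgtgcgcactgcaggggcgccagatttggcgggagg
first intron, 1.87 kb: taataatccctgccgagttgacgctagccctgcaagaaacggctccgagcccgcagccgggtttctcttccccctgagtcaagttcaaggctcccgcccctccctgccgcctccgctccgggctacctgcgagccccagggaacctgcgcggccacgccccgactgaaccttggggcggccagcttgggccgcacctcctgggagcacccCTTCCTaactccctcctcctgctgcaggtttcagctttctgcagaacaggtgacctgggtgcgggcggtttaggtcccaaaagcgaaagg
first intron, 2.73 kb: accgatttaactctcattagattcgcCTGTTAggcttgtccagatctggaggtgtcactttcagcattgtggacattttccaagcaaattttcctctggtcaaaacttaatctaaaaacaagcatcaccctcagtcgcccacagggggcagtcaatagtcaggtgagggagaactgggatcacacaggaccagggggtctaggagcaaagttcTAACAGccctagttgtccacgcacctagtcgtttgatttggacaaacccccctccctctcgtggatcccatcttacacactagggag
upstream, 25.91 kb: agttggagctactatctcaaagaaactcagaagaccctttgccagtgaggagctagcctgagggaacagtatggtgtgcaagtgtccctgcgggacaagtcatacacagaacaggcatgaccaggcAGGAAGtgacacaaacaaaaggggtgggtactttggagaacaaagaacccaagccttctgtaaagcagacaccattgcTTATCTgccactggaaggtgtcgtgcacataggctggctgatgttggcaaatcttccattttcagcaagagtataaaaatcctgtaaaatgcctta
upstream, 28.18 kb: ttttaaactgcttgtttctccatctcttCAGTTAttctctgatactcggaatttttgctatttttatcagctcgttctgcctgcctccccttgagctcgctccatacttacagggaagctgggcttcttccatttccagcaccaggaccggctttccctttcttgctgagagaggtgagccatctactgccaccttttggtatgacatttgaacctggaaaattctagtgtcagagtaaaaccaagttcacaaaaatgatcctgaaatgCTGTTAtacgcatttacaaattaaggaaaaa
upstream, 35.79 kb: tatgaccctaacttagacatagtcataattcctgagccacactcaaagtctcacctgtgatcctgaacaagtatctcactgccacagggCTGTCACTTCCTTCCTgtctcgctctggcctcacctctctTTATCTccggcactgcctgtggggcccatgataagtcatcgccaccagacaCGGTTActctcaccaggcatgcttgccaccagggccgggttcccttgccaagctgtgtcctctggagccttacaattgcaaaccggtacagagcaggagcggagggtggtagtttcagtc
upstream, 91.35 kb: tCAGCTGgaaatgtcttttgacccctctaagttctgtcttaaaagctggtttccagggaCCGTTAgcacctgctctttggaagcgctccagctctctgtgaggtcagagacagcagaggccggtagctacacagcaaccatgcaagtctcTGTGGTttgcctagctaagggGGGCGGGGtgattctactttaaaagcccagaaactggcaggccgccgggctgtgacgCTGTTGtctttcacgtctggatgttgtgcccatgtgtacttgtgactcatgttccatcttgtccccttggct

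These cells held 37142391 fragments, from 3970 to 194173 per cell with a median of 11440, which is 14.5 fragments per kb over the genome. Marker promoters were called open when at least 2% of cells (63 cells) had a fragment end within 500 bp of the start, which held for 62.6% of 21755 promoters. Of 7 HSC markers 6 were open, from Slamf1 (3.31% of cells) to Hlf (40.0%), whereas Ly6a, part of the sort, was at 1.19%. Open promoters were 1 of 4 for T cells, 3 of 4 for erythroid cells, 1 of 4 for granulocytes, 1 of 3 for macrophages, 2 of 3 for endothelium and 1 of 3 for stroma. The highest was Cd68 (13.9%), and the defining genes Cd3e, Elane, S100a8, Hba-a1 and Cdh5 lay between 0.129% and 1.19%. The part of other cell types in the values below was not tested.

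The Myb promoter was accessible in about 1 in 5 cells at this depth. In the window from 500 bp before to 500 bp after the start, 649 of 3108 cells had a fragment end, or 20.9% (95% interval 19.5 to 22.4), with 830 fragments in all. The share exceeded that of 71.3% of protein-coding promoters, whose median was 7.01%. Of the cells, 507 had 1 fragment in the window, 114 had 2 and 28 had 3 or more. Had cells differed only in their number of fragments, 612 cells would have had 1, 89.2 would have had 2 and 12.3 would have had 3 or more. Fragments were therefore packed into fewer cells than a rate set by depth alone gives. The same comparison was not made for other promoters, so it is not shown to be particular to Myb. The 250 bases before the start were rich in G and C (81.2%) and held 1 match among the strings, CCCCGCCC, which 16.1% of 32851 promoters also hold. A match is a description of the letters and not a bound site.

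**Figure D1:**
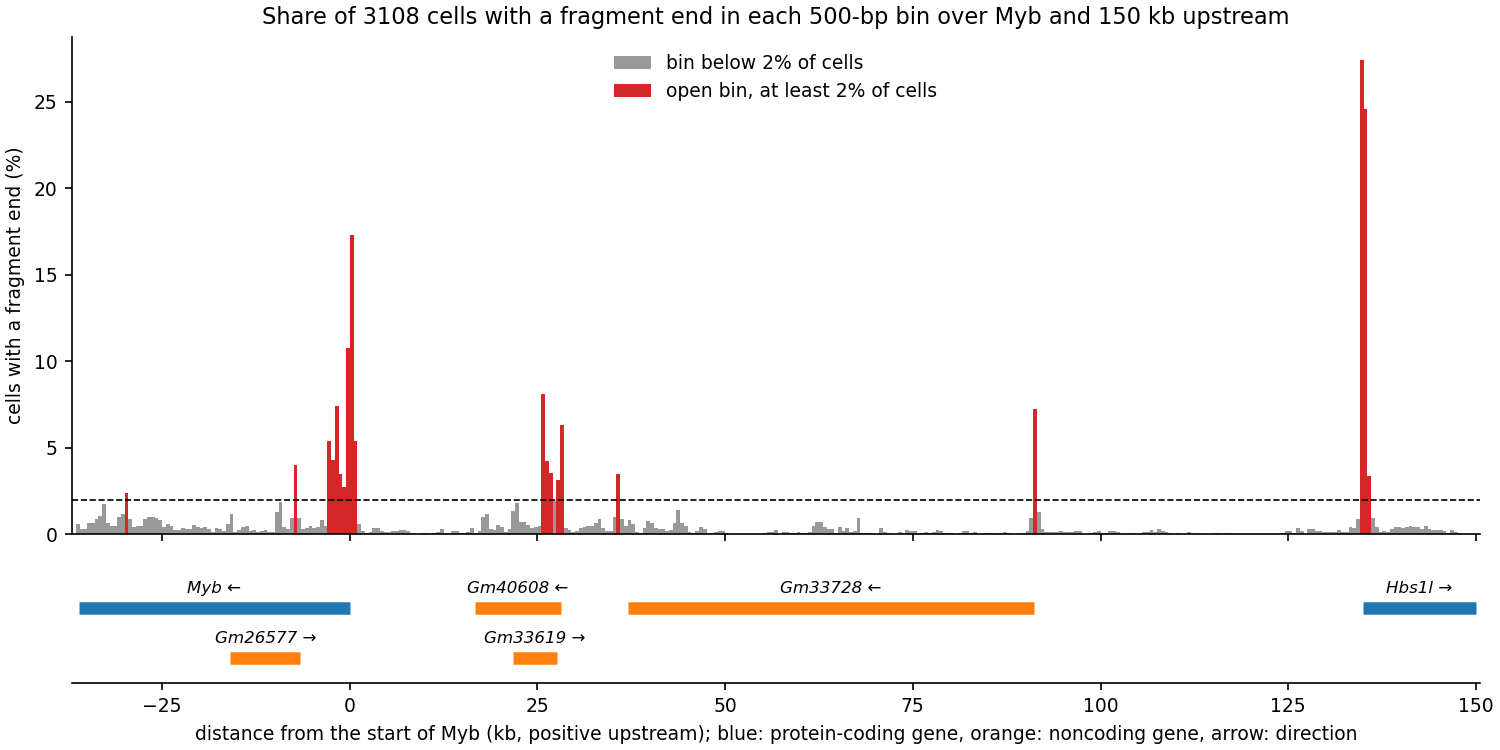
Share of the 3108 cells with a fragment end (y axis, %) in each 500-bp bin against distance from the start of Myb (x axis, kb, positive upstream), with open bins in red, other bins in gray and annotated genes drawn to scale underneath. The promoter bin reaches 17.3%, the 25.9-kb and 91.3-kb maxima 8.11% and 7.24%, and the Hbs1l promoter 27.4%.

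Accessibility did not end at the promoter but ran without a break into the first intron. A bin was called open when at least 2% of cells had a fragment end in it. Over the interval 20 of 373 bins were open (5.36%), against 2.00% of all bins of the genome. They held 66.0% of the 6357 fragments of the interval. All 8 bins from chr10:21158001 to 21162000 were open, a run of 4000 bp from 2.98 kb inside the gene to 1.02 kb before it, and 1059 cells (34.1%, 32.4 to 35.8) had a fragment in it. The bin just before the start (chr10:21161001-21161500) was the highest, with 537 cells (17.3%, 16.0 to 18.7). The bin across the start and first exon had 335 cells (10.8%).

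The first intron carried 2 maxima of its own, besides the shoulder of the promoter. Of its 7 bins outside the promoter 4 were open. The bin at 1.87 kb had 231 cells (7.43%, 6.54 to 8.41), and the one at 2.73 kb had 168 cells (5.41%, 4.64 to 6.26). The open part stopped 2.98 kb into the gene, where the 8 bins that follow had a median of 0.451% of cells. Per kb the first intron held 11.3 times the genome mean of fragments (10.4 to 12.2), the promoter 38.1 times (35.5 to 40.8), the other introns 2.49 times (2.32 to 2.66) and bins touching exons 0.911 times (0.755 to 1.09). The sequence at 1.87 kb was rich in G and C (65.0%) and held a single ETS string, and that at 2.73 kb held 2 TAACNG strings.

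**Figure D2:**
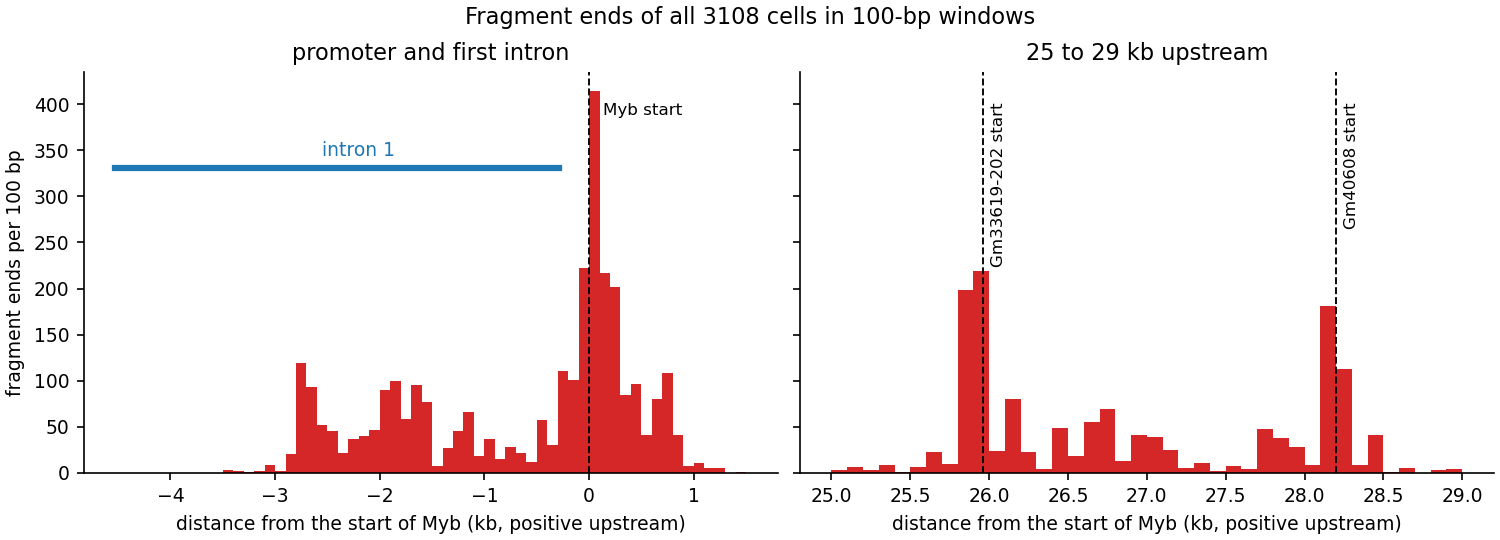
Fragment ends of all 3108 cells in 100-bp windows (y axis) around the promoter and first intron of Myb (left) and from 25 to 29 kb upstream (right), against distance from the start of Myb (x axis, kb, positive upstream). Dashed lines mark annotated starts, and the tallest windows stand next to each of these 3 starts while the intron carries lower, broader maxima.

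Deeper in the gene only 2 single bins were open. One lay in intron 3, 7.23 kb from the start, with 124 cells (3.99%, 3.33 to 4.74). The other lay in intron 14, 29.7 kb from the start, with 74 cells (2.38%, 1.87 to 2.98), an interval that reaches below the limit of 2%. In the 22.0 kb between them no bin was open, and the highest had 1.87% of cells. The intron 3 bin held 2 ETS strings and 1 TAACNG, and the intron 14 bin held 3 TAACNG and 2 TGACAG strings.

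Upstream of the promoter, accessibility was confined at this limit to 3 intergenic elements and the Hbs1l promoter. An element was a set of open bins at most 1 closed bin apart. The first 24.5 kb beyond the promoter held no open bin, with a median of 0.225% of cells per bin. Next came an element of 3000 bp (chr10:21186501-21189500), with 705 fragments in 564 cells (18.2%, 16.8 to 19.6). It held a maximum at each end, at 25.91 kb with 252 cells (8.11%, 7.17 to 9.12) and at 28.18 kb with 197 cells (6.34%, 5.51 to 7.25). The bin that joins its parts fell just short of the limit, at 1.93% of cells.

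The second element was a single bin at 35.79 kb (chr10:21196501-21197000), with 109 cells (3.51%, 2.89 to 4.22). The third was a single bin at 91.35 kb (chr10:21252001-21252500), with 225 cells (7.24%, 6.35 to 8.21). The intervals of the 25.91-kb, 91.35-kb and 28.18-kb maxima overlapped one another in that order, and all 3 lay above that of the 35.79-kb bin. Judged by its highest bin, the 25.9-kb element exceeded 80.2% of 30038 open elements of the genome away from promoters, the 91.3-kb element 76.1% and the 35.8-kb element 39.7%. So 2 of the 3 intergenic elements of Myb were in the upper part of that range and none was at its top.

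Between these elements the interval was almost empty. From 36.02 to 91.02 kb upstream, 55.0 kb held no open bin, with a median of 0.129% of cells and a maximum of 1.38% at 43.8 kb. From 91.5 to 134.5 kb upstream, 43.0 kb held none, with a median of 0.113%. The median bin of the whole genome had 1 fragment and 0.0322% of cells, so even these stretches were above the typical bin, while their medians lay below the genome mean of 9.99 fragments per bin (4 and 3.5 fragments). In the longer stretch, every bin from chr10:21211501 to 21216000 had 0 fragments, both in cells and in barcodes not called as cells. Whether reads can be placed there was not tested. At a limit of 1% of cells, 3 further upstream elements appeared, with their highest bins at 18.3 kb (1.16%), 22.3 kb (1.80%) and 43.8 kb (1.38%). The Hbs1l promoter, which closes the interval, had 1060 cells (34.1%, 32.4 to 35.8) over 1500 bp and 851 cells (27.4%) in its highest bin.

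Of the 4 intergenic maxima, 3 lay next to the annotated start of a lincRNA. The 28.18-kb maximum was 13 bp from the start of Gm40608, the 25.91-kb maximum 49 bp from the start of the transcript Gm33619-202, and the 91.35-kb maximum 218 bp from the start of Gm33728. Only the 35.79-kb maximum was far from one, at 7596 bp. Over the genome 2.90% of 30038 distal elements had their maximum within 250 bp of a noncoding start. That share takes only the highest point of each element, and the start of any gene that is not protein-coding. Counted so, the elements with maxima at 25.91 kb and 91.35 kb lay within 250 bp of a start, and the one at 35.79 kb did not. Gm33619 and Gm40608 are read from opposite strands and overlap each other, and the starts of Gm33619-202 and Gm40608 stood near either end of the 3000-bp element.

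The strings differed between the elements. The string of GATA factors had a match at 25.91 kb and at 35.79 kb, and 14.8% of distal elements of the genome hold one. The RUNX string had 1 match, at 91.35 kb, starting at the base with the most ends around it, against 29.3% of distal elements. The ETS string had a match in 4 of the 8 windows outside promoters, against 48.9%. The 2 ETS matches at 35.79 kb share 2 letters, and a MEIS string stands directly beside them. TAACNG had 10 matches in 6 of the 8 windows, against 27.4% of distal elements, and CAACNG had 1 in 1 window, against 36.7%. The MEIS string had a match in 2 of the 8 windows, against 20.5%, and CAGCTG in 1, against 20.1%. CAGATG and CCACACCC had a match in 0 windows, against 22.5% and 3.19%. The SP string CCCCGCCC had a match at 91.35 kb, against 4.57%. No window held the composite of GATA1 and TAL1, the letters CTG with 8 or 9 bases before GATAA, which 3.53% of distal elements hold, or a CTCF core, which 28.9% hold with up to 1 mismatch. These letters say nothing on which factor was bound, and a missing string says only that it is not in these bases.

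The elements also differed in the length of their fragments. Over all cells 46.2% of fragments were under 150 bp, the class that mostly comes from DNA free of nucleosomes. At 91.35 kb 66.0% were (59.8 to 71.9), at 35.79 kb 58.1% (48.9 to 66.9), at 25.91 kb 55.8% (49.8 to 61.6) and at 28.18 kb 46.8% (40.0 to 53.7). The promoter bin of Myb had 44.6% (40.7 to 48.5), while that of Hbs1l had 72.3% (69.5 to 74.97). The first-intron maximum at 1.87 kb had the lowest share of the 10 maxima, 34.1% (28.3 to 40.2). Intervals lay above the value of all fragments at 25.91, 35.79 and 91.35 kb and at Hbs1l, lay below it at 1.87 kb, and held it at the promoter of Myb and at 28.18 kb.

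**Figure D3:**
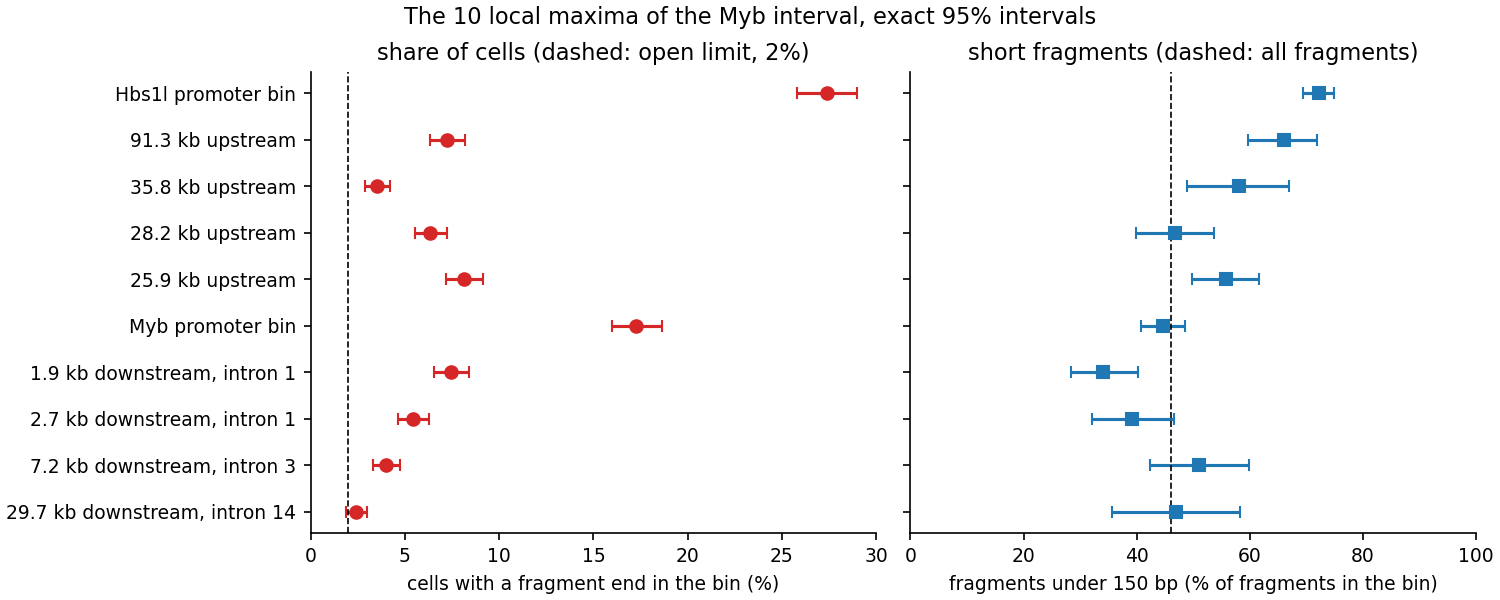
The 10 local maxima of the interval in genomic order (y axis), with the share of cells with a fragment end in the bin (left, %) and the share of fragments under 150 bp (right, %); points are values of the 1 library and bars exact 95% intervals. The 91.3-kb bin and the Hbs1l promoter bin lie to the right of the dashed line of all fragments (46.2%), and the 1.9-kb intron bin lies to its left.

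The elements also differed within the short fragments. Fragments from 75 to 124 bp made up 33.2% of the 250 fragments of the 91.3-kb element, against 13.8% of all fragments, 13.9% at the 25.9-kb element, 10.6% in the run over the Myb promoter and first intron, and 21.9% at the Hbs1l promoter. The median length at 91.3 kb was 102.5 bp, against 179 bp in the Myb promoter run and 162 bp over all fragments. These sets differ in width, with 500 bp at 91.3 kb, 3000 bp at 25.9 kb and 4000 bp in the Myb run. The wider ones take in flanking bins. Over the whole 25.9-kb element 48.1% of fragments were under 150 bp, against 55.8% in its highest bin. The part of width in these differences was not tested. The smaller elements had 20 of 81 fragments in intron 14 (24.7%), 30 of 124 at 35.8 kb (24.2%) and 29 of 135 in intron 3 (21.5%). The class from 75 to 99 bp held 20.4% of the fragments at 91.3 kb, 16.1% at 35.8 kb and 14.1% in intron 3, against 8.82% of all fragments.

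**Figure D4:**
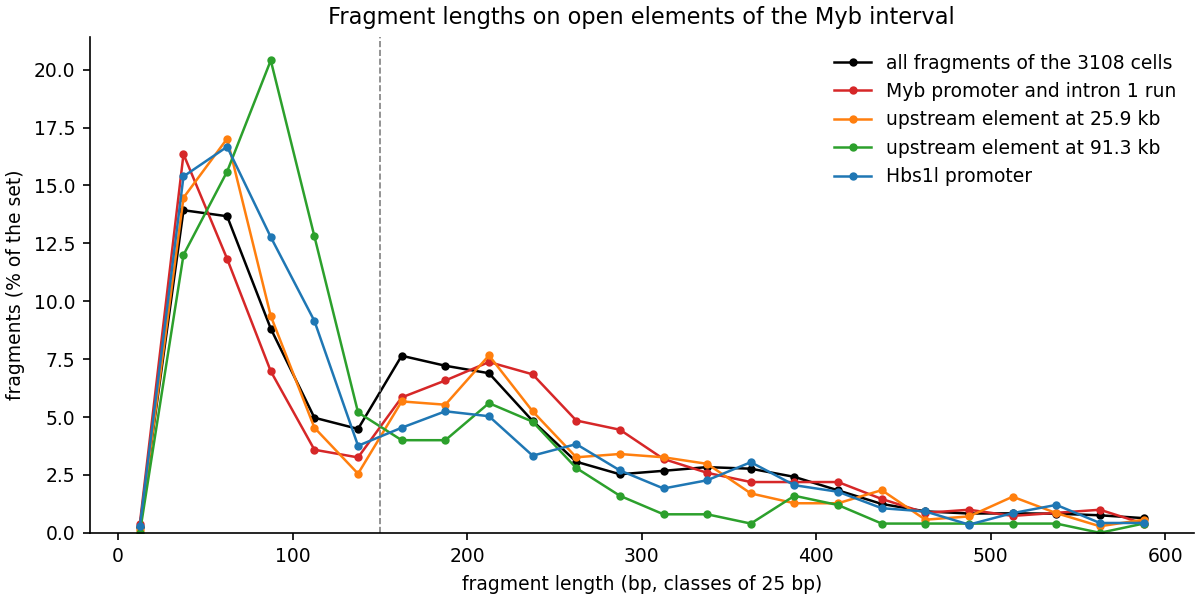
Share of fragments (y axis, % of each set) by fragment length in classes of 25 bp (x axis, bp) for 4 elements of the interval and for all fragments of the 3108 cells. The 91.3-kb element peaks in the class from 75 to 99 bp, where the Myb promoter run is below the line of all fragments. The 91.3-kb element is 500 bp wide and the Myb run 4000 bp.

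Single cells had few of these sites marked at once. Of the 7 elements, counting the fixed window for the promoter of Myb, 1165 cells had a fragment at none, 1252 at 1, 543 at 2, 126 at 3, 21 at 4 and 1 at 5. If each site opened independently at a rate set only by the fragments of the cell, 1169, 1245, 546, 128, 18.0 and 2.03 cells would be so. The observed and expected numbers were thus close at every step.

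Promoter and upstream elements were marked in the same cell about as often as depth alone gives. A fragment on any of the 3 intergenic elements was found in 822 cells, and 184 cells had one there and at the promoter, against 190 expected, a ratio of 0.969 (0.834 to 1.12). For the 25.9-kb element the ratio was 0.866 (114 cells, 0.714 to 1.04), for the 35.8-kb element 1.08 (28 cells, 0.715 to 1.56) and for the 91.3-kb element 1.09 (58 cells, 0.825 to 1.41). Promoters on other chromosomes marked in at least 5% of cells, paired with that of Myb in the same way, gave a median of 1.00, and the middle 95% of 11331 of them lay between 0.852 and 1.17. For the 3 intergenic elements as a set the interval left out an excess of 1.2 times, whereas for the 35.8-kb element alone it still held one of 1.5 times. Among 21 pairs of sites, 1 had an interval without 1. That pair was the intron 3 element and the 35.8-kb element, with 12 cells against 5.20 expected (2.31, 1.19 to 4.03), a count too sparse to read as a relation among 21 pairs.

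**Figure D5:**
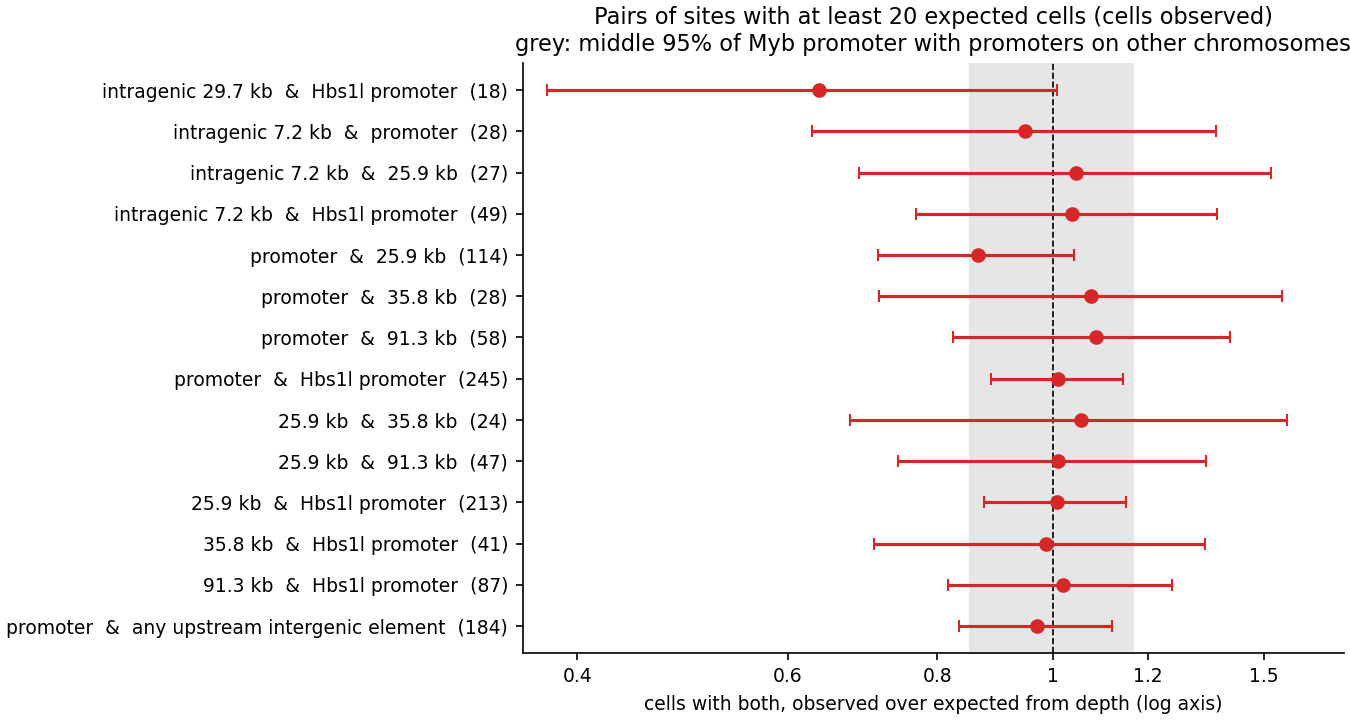
Cells with a fragment at both sites over the number expected from depth (x axis, log scale) for pairs with at least 20 expected cells (y axis, cells observed in parentheses); bars are exact 95% Poisson intervals of the observed count. Every interval holds 1, and the gray band is the range from 0.852 to 1.17 of the Myb promoter with promoters on other chromosomes.

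The share of cells with a fragment rose with the depth of the cell. In the 4 quartiles of fragments per cell, with medians of 7452, 10482, 12371 and 15526, the promoter of Myb was marked in 13.02%, 18.04%, 21.2% and 31.3% of cells, and any intergenic element in 15.9%, 24.0%, 28.4% and 37.6%. Per 1000000 fragments of the quartile the promoter had 21.7, 20.9, 20.6 and 24.7 fragments, with overlapping intervals (18.0 to 26.0 in the lowest quartile and 22.1 to 27.5 in the highest). The intergenic elements had 27.1, 29.9, 29.5 and 29.02 on this scale. The Hbs1l promoter had 37.8, 44.3, 41.9 and 31.6, and in the deepest quartile its interval (28.7 to 34.7) lay below those of the middle quartiles (39.9 to 49.2 and 37.9 to 46.2). Barcodes not called as cells, which hold 3525836 fragments of free DNA and of uncalled cells, had 15.9 per 1000000 at the promoter window (56 fragments) against 22.4 in the cells. At the 25.9-kb element the numbers were 13.3 and 18.98, and at the 91.3-kb element 4.82 and 6.73.

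The upstream interval of Myb was ordinary in its number of open bins against all genes, and high against genes with no other protein-coding start nearby. From 1 to 150 kb upstream Myb had 10 open bins, more than 52.4% of the 21755 genes, with a median of 9. Most genes have other promoters in that span, which add open bins. Among the 2755 genes with no other protein-coding start in the first 130 kb the median was 1, and Myb exceeded 91.8% of them. These 2755 genes were not matched to Myb on the accessibility of their own promoters. The 10 bins include the 3 of the Hbs1l promoter element. From 1 to 100 kb upstream, which leaves out Hbs1l, Myb had 7 open bins and exceeded 92.2% of the 2755 genes. Fragment density from 1 to 150 kb upstream was 1.80 times the genome mean (1.746 to 1.86), and that of the bins between the genes was 1.25 times (1.204 to 1.304). The neighbors on either side had more accessible promoters than Myb, Hbs1l with 33.7% of cells and Ahi1, which encodes a ciliary protein, with 45.2%. Genes known for distal enhancers in HSCs differed widely upstream, with 4 open bins for Myc, 8 for Runx1 and 46 for Gata2. Gata2 had 5 other protein-coding starts in its first 130 kb, against 0 for Myc and Runx1, so these counts do not compare enhancers alone. The promoters of Myc, Runx1 and Gata2 were open in 36.1%, 35.01% and 18.9% of cells.

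The promoters of genes that work with c-MYB were compared with the 62.6% of all promoters that were open. In its family all 3 were open, Mybl1 at 36.5% of cells, Myb at 20.9% and Mybl2 at 16.3%, with intervals apart (34.8 to 38.2, 19.5 to 22.4 and 15.0 to 17.6). All 4 coactivators were open, from Men1 (27.5%) to Ep300 (66.7%), which encodes the acetyltransferase p300 that c-MYB binds. Of the factors of the erythroid enhancers 5 of 7 were open, a share near that of all promoters, Tal1 (36.5%), Runx1 (35.01%), Ldb1 (27.1%), Gata2 (18.9%) and Klf1 (2.74%), while the starts of Lmo2 (1.09%) and Gata1 (1.06%) lay below the limit. Of known targets of c-MYB 7 of 11 were open, again near it, Bcl2 (38.6%), Myc (36.1%), Ccnb1 (28.2%), Kit (27.1%), Cdk6 (17.7%), Gfi1 (8.91%) and Ada (8.14%). The other 4, Mpo, Elane, Cd4 and Rag2, which serve granulocytes and lymphocytes, lay between 0.483% and 1.26%. The lists were too small to set them apart from all promoters.

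By the profile of fragments over 37 windows of 5 kb, from 150 kb upstream to 35 kb downstream of the start, the genes most like Myb among 8576 ranked were Epc1 (r = 0.681), Trim25 (0.677), Wnt11 (0.643), Gcnt2 (0.631) and Catsper2 (0.625). Only genes with at least as many fragments in the profile as Myb (6344) were ranked, on a log scale. In the first 130 kb upstream, other protein-coding starts numbered from 1 for Wnt11 and Gcnt2 to 28 for Catsper2, against 0 for Myb. The r is a correlation over windows of 1 library, which share its depth, and it carries no p.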

How the data were processed

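The ATAC library of 1 HSC preparation was analysed. Reads had been mapped to mm10 with Cell Ranger ARC 2.0.2, and the authors deposited, without normalization, fragment and molecule counts per barcode and a list of unique fragments with their supporting read-pair counts. The sources used here do not state a transposase offset for fragment ends. RNA counts per gene and the antibody tag matrix were not used here.

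Fragments of passing cells were placed by both ends into 500-bp bins of GRCm38. A bin was open at 2% of cells, and open bins were joined over at most 1 closed bin. Maxima were centers of the 100-bp window with the most ends. Genes came from GENCODE vM21, with the principal transcript of each. Expected joint counts used a rate per fragment for each site. Doublets were kept, and an alternative left out the deepest cells. The named genes were Myb, its neighbors and family, known partners, enhancer factors and targets, genes with distal enhancers, marker lists and the 5 most similar profiles. The members and lists were chosen with earlier results of these data known. One marker list is not reported here. The steps were tested on simulated data. Sequences were read with pysam 0.24.0, tables with pandas 2.3.3, intervals were computed with scipy 1.17.1, arrays with numpy 2.4.6 and plots with matplotlib 3.10.9, all under Python 3.11.15.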

Additional observations from a re-analysis of the deposited data

How the results depend on the processing

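No paired analysis was possible because there was 1 library and no second group. Alternatives were tried for cells, depth, grid, limits and counting of fragments, and 44 recomputed values stayed inside the counting interval, or within 1.5 times for a count, while 23 did not. Thinning each cell to 3000 fragments, which by construction lowers every share, gave 6.37% for the promoter, 2.28% for the strongest first-intron bin, 1.96% for the strongest upstream bin, 1 open first-intron bin, 5 open bins in all, 1 upstream element (Hbs1l) and a joint ratio of 0.696 (0.348 to 1.25), with the elements kept in place. Fragments under 150 bp alone gave 9.97% for the promoter, 2.735% and 2 bins for the first intron, 11 open bins and 4.89% upstream. All called cells gave 18.05% for the promoter and 6.39% for the first intron. Placing fragments by their midpoint gave 5.60% for the first intron and 6.63% upstream. A limit of 1% of cells gave 37 open bins and 7 upstream elements, and a limit of 5% gave 10 open bins and 2 in the first intron; its 4 upstream elements were not those of the 2% limit, since the 35.8-kb bin was lost and the 25.9-kb element split at its 2 maxima. A promoter window of 1000 bp to each side gave 24.2%. Genes with no other start nearby placed the upstream interval above 91.8% of genes instead of 52.4%. Fragments under 100 bp made up 43.0% of the fragments on intergenic elements, against 53.4% under 150 bp and 36.7% under 100 bp over all fragments. With peak fragments as the depth of a cell, chosen after seeing the data, the joint ratio was 0.984. One library limits every value to counting error.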
